A study of Homo sapiens with 5 samples.

Results

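The regions described here held a peak of the retinoblastoma protein (Rb) in exactly 1 of the 2 abemaciclib libraries and in neither DMSO library. They were found by merging all peaks of the 4 Rb libraries that shared at least 1 bp and keeping such regions on chromosomes 1 to 22 and X. They numbered 3596 of 14810 merged regions, or 24.3%, and are called single-library regions below. Of these, 2712 came from abemaciclib replicate 1 and 884 from abemaciclib replicate 2, and each consisted of a single peak. They were chosen by the presence and absence of peak calls, so their strength, width and rank are described without a test.

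Binding was profiled by CUT&RUN, which sequences the DNA fragments that an antibody-tethered nuclease cuts out around its target protein. Parental ZR-75-1 cells, a long-established line of breast cancer with hormone receptors, were used in all groups. They received DMSO or, at 500 nM, the CDK4 and CDK6 inhibitor abemaciclib, in each case over 4 days, with 2 libraries per treatment made with an Rb antibody from independent cultures. Another library, from DMSO-treated cells with an IgG2a antibody, served as the negative control.

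Rb is a tumour suppressor that does not recognise a DNA sequence itself and is brought to promoters by E2F transcription factors. Phosphorylation by CDK4 and CDK6 releases it from E2F, and inhibitors of these kinases keep it in the form that binds. CpG-rich promoters of cell cycle genes are its best known sites, and a peak caller reports such a site only where the fragments piled up at it exceed the local background by more than a threshold.

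On chromosomes 1 to 22 and X, the lists held 13836 and 12145 peaks for abemaciclib replicates 1 and 2, 1367 and 2445 for DMSO replicates 1 and 2, and 84 for IgG2a. Single-library peaks made up 19.6% of the list of abemaciclib replicate 1 and 7.28% of that of replicate 2, but 8.12% and 2.66% of the sequence under peaks. No single-library region overlapped an IgG2a peak, which allows a share of up to 0.107%, while 10 of all 14810 merged regions (0.0675%) did, a share within that limit. The comparison set below is the 8607 gained regions, where abemaciclib replicates 1 and 2 both had a peak and no DMSO library did.

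Summit windows of 200 bp show what these sites look like. They are the highest ranked promoter region with an E2F pattern and the highest ranked region outside promoters in each abemaciclib library, and the highest ranked promoter region in replicate 2, leaving out windows that touch an annotated UTR. Rank is by −log10 p within the library's list. All are the plus strand of GRCh38. Capitals mark E2F patterns (TTCCCGC here) and the GATA pattern TGATAA, each read on either strand. In abemaciclib replicate 1 the windows are chr7:101814145-101814344 at the promoter of CUX1 and chr3:126389365-126389564, an intergenic site 5.44 kb from the nearest coding transcription start site (TSS), that of CFAP100. In abemaciclib replicate 2 they are chr6:63573590-63573789 in an intron at the promoter of PTP4A1, chr1:54542186-54542385 in an exon at the promoter of ACOT11, and chr1:149558625-149558824, an intergenic site whose nearest coding TSS, of PPIAL4C, was 25.1 kb away.
CUX1 promoter, replicate 1: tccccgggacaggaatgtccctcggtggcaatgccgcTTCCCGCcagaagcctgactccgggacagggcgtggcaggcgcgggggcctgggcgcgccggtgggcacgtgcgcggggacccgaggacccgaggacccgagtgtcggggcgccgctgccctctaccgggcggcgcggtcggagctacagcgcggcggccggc
CFAP100 upstream region, replicate 1: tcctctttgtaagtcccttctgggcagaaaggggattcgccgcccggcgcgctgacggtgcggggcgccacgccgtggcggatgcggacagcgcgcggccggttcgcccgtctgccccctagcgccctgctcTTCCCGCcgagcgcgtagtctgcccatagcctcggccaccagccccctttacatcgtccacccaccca
PTP4A1 promoter, replicate 2: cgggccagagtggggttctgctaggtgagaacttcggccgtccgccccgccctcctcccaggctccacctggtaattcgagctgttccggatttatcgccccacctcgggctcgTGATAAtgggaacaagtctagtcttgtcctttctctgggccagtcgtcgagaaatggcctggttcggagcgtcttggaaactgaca
ACOT11 promoter, replicate 2: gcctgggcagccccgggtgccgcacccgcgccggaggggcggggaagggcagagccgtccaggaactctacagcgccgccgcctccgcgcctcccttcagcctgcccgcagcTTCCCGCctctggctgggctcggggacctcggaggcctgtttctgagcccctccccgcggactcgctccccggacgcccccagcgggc
PPIAL4C distal region, replicate 2: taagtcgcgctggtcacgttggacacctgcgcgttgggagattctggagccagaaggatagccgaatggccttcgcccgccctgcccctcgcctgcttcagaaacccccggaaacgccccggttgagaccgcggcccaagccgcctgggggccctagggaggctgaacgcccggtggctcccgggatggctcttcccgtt

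The CUX1 window held 29 CpGs at a GC content of 77.5% and the ACOT11 window 22 at 77.5%, each with 1 E2F pattern. Although it lay outside promoters, the CFAP100 window held 25 CpGs at 70.5% GC and an E2F pattern. The PTP4A1 window, with a GATA pattern, held 14 CpGs at 59.0% GC. The PPIAL4C window held none of the marked patterns, with 19 CpGs at 67.5% GC. The number of CpGs thus ranged from 14 to 29 among these windows. Over all single-library windows the medians were lower, at 11 in replicate 1 and 9 in replicate 2.

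Single-library regions lay at the weak end of both abemaciclib lists. The peak caller's −log10 p, the evidence that fragments at the summit exceed the local background, ranged from 3.74 to 25.6 among the 2712 regions of replicate 1, with a median of 6.32 (quartiles 5.23 and 8.65). In replicate 2 it ranged from 3.85 to 18.1 among 884 regions, with a median of 5.88 (5.22 and 7.24). Gained regions had medians of 21.5 and 16.3 in the same libraries, and regions shared by all 4 libraries 165 and 125. The ranges overlapped, since the weakest gained peaks stood at 3.78 and 3.81.

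**Figure D1:**
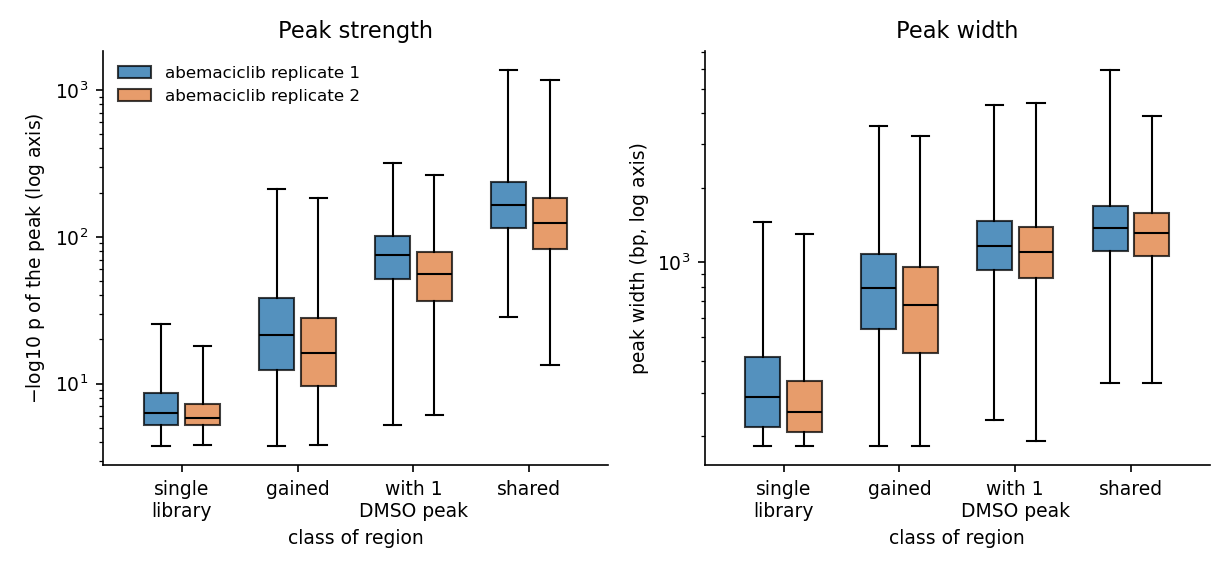
Strength (−log10 p, left) and width in bp (right) of peaks in each abemaciclib library, both on log axes, for 4 classes of region. Boxes span the quartiles with the median as a line, and whiskers reach the lowest and highest value. Single-library peaks have medians of 6.32 and 5.88 for −log10 p, below the medians of 21.5 and 16.3 for gained peaks.

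Peaks were also narrow. The median width was 287 bp in replicate 1 (quartiles 218 and 417) and 250 bp in replicate 2 (209 and 333), against 789 and 675 bp for the peaks of gained regions. The narrowest single-library peaks measured 182 and 183 bp, the least width in each list. The widest reached 1459 and 1303 bp. Fold enrichment over the local background had medians of 4.83 and 4.60, compared with 10.9 and 9.20 for gained peaks.

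In fragments, these are small pileups. A whole number of fragments at the summit and a local background that gave both the fold and the p-value were found for every peak of the abemaciclib lists with −log10 p of at most 40. Single-library summits held a median of 8 fragments in replicate 1 (quartiles 7 and 11) and 7 in replicate 2 (6 and 9). At most 8 fragments supported 1421 of 2712 regions (52.4%) in replicate 1 and 643 of 884 (72.7%) in replicate 2. The smallest pileup was 5 fragments in both lists, with 127 and 60 such regions. Only 159 regions of replicate 1 and 8 of replicate 2 reached 15 fragments. The commonest local background was 0.656 fragments in replicate 1 and 0.521 in replicate 2, so the library with fewer single-library regions also had the lower background. Duplicate reads were kept by the authors, so these pileups can include copies of 1 molecule.

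The share of peaks seen in 1 abemaciclib library alone varied with strength. In the strongest 4 deciles of replicate 1 there was none (up to 0.277% of a decile by the interval), decile 5 held 10 of 1384, and the last held 1046 of 1384 (75.6%, 95% interval 73.2% to 77.8%). In replicate 2 there was none in the strongest 5 deciles, and the last held 481 of 1215 (39.6%, 36.9% to 42.4%). The highest ranked single-library peak stood at rank 5940 of 13836 in replicate 1 and at rank 6148 of 12145 in replicate 2. Weak peaks of replicate 1 were thus seen alone more often than weak peaks of replicate 2.

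**Figure D2:**
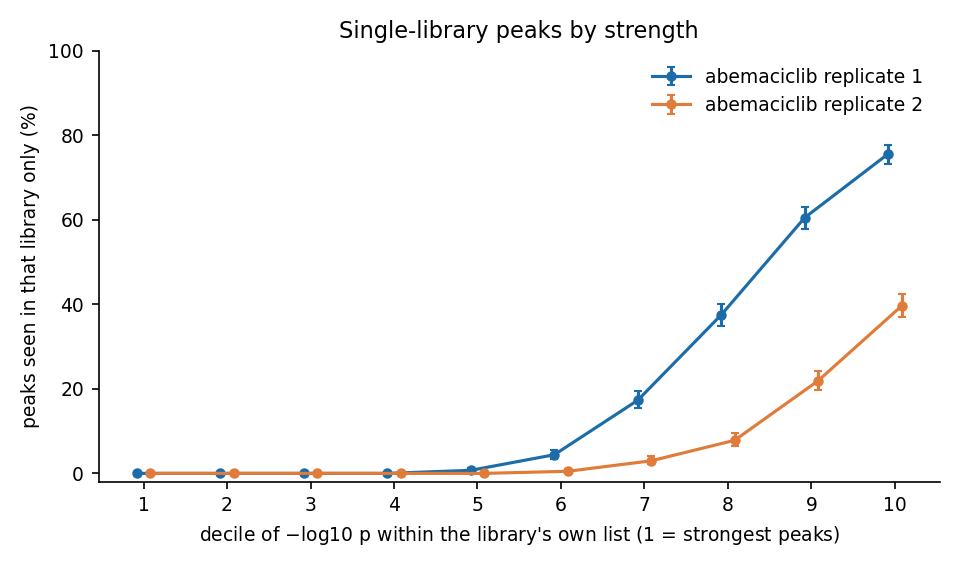
Share of peaks (%, vertical axis) seen in only 1 abemaciclib library, by decile of −log10 p within each library's own list (horizontal axis, 1 is strongest). Points are shares with Wilson 95% intervals. The share climbs from 0 in the strongest deciles to 75.6% in the last decile of replicate 1 and 39.6% in that of replicate 2.

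The lists differed in length, and the numbers from each replicate are given at the full and at an equal length. There were 3.07 regions of replicate 1 for each region of replicate 2. When the list of replicate 1 was shortened to the 12145 strongest peaks, the number in the list of replicate 2, the classes held 1462 and 1288 regions, a ratio of 1.14. The shortening removed the weakest peaks of replicate 1, where single-library peaks were commonest, so a fall in the ratio was built in. The cause of the imbalance was not tested.

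At the edge of the rule, membership turned on small differences. The weakest single-library peaks had −log10 q of 1.32 and 1.35, just above the calling threshold, and 304 and 82 had a q-value above 0.01. Just outside the rule, 165 of the gained regions (1.92%) were held by a weaker peak with a q-value above 0.01, and 28 by an overlap of at most 50 bp, the smallest being 1 bp. The same p-value also counted differently in the DMSO lists, whose weakest peaks had −log10 p of 5.10 and 4.78. In replicate 1, 411 single-library regions (15.2%) lay below the lower of these values, as did 171 (19.3%) in replicate 2. Neither DMSO list held any peak so weak.

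Some regions had a peak of the other abemaciclib library close by. For regions of replicate 1, 262 of 2712 (9.66%) had a peak of replicate 2 within 500 bp, and the median gap was 27930 bp. For regions of replicate 2, 189 of 884 (21.4%) had a peak of replicate 1 within 500 bp, and the median gap was 16401 bp. DMSO lists held only 1367 and 2445 peaks, and the rule excluded any overlap with them. At most 6 regions of replicate 1 and 4 of replicate 2 had a peak of a given DMSO library within 500 bp. Gaps of gained regions to DMSO peaks were not measured.

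Most single-library regions lay at promoters, but fewer than among gained regions. A promoter was taken to reach from 2000 bp before any annotated TSS to 500 bp after it. In replicate 1, 1773 of 2712 (65.4%, 95% interval 63.6% to 67.1%) overlapped a promoter, against 7828 of 8607 gained regions (90.9%, 90.3% to 91.5%). The difference was −25.6 percentage points (interval −27.5 to −23.7; Fisher's exact test, two-sided, adjusted p = 1.14e-199). In replicate 2, 555 of 884 did (62.8%, 59.5% to 65.9%), a difference of −28.2 points (−31.5 to −25.0, adjusted p = 1.32e-98 by the same exact test). Placing only the summit, which takes width out of the call, gave 63.6% and 61.1% for single-library and 89.0% and 88.9% for gained regions. With the classes formed anew from peaks with q-values up to 1e-05, the differences were −14.1 and −15.8 points. These tests treat regions as independent draws from each list and are not tests over replicate cultures.

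Base composition differed in the same direction. A summit window was called CpG-island-like with a GC content of at least 50% and an observed over expected CpG ratio of at least 0.6. In replicate 1, 1369 single-library windows passed (50.5%, 48.6% to 52.4%), against 83.0% of gained windows (82.2% to 83.8%, adjusted p = 4.88e-234, exact test). In replicate 2, 368 passed (41.6%, 38.4% to 44.9%), against 82.1% (81.3% to 82.9%, adjusted p = 2.58e-139, exact test). The differences of −32.5 and −40.5 points were −15.4 and −18.5 with the classes formed anew from peaks with q-values up to 1e-05. The median number of CpGs in 200 bp was 11 and 9 in the single-library windows of replicates 1 and 2 and 19 in gained windows of both. No CpG at all was found in 103 single-library windows (2.86%), against 0.139% and 0.116% of gained windows in replicates 1 and 2. Among all merged regions, which include the single-library ones, the share was 0.905%.

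E2F patterns, written TTNNCGC with each N either C or G and read on either strand, were less frequent in single-library windows. They stood in 308 windows of replicate 1 (11.4%, 10.2% to 12.6%), against 17.3% of gained windows (16.5% to 18.1%, adjusted p = 4.37e-14, exact test). In replicate 2 they stood in 103 windows (11.7%, 9.70% to 13.9%), against 16.5% (15.7% to 17.2%, adjusted p = 1.59e-04, exact test). In windows of 400 bp the differences of −5.95 and −4.80 points were −11.9 and −12.9. By comparison, 9.21% of 34961 RefSeq promoter windows of the same length and 16.6% of all merged regions held one. These patterns are rich in CpG, whose frequency differed between the classes as well, and the part of base composition in the difference was not tested.

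CCAAT, the pattern bound by the transcription factor NFY, was less frequent in single-library windows of 1 library and not distinguishable in the other. It stood in 14.1% of single-library windows of replicate 1 (12.9% to 15.5%), against 18.0% of gained windows (adjusted p = 3.66e-06, exact test). In replicate 2 it stood in 18.2% (15.8% to 20.9%), against 18.1%, a difference of 0.123 points with an interval of −2.42 to 2.92 (adjusted p = 0.927, exact test). With the classes formed anew from peaks with a q-value of at most 1e-05, this difference was −5.03 points (adjusted p = 0.00309, exact test). The difference between the libraries was not tested. In RefSeq promoter windows CCAAT stood in 28.0%, above both classes. By range of −log10 p, replicate 1 gave 14.1% and 17.7% in the weakest range and 13.5% and 16.3% in the highest, single-library share first. In replicate 2 the weakest range gave 22.2% and 17.6% and the highest 15.9% and 16.5%.

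**Figure D3:**
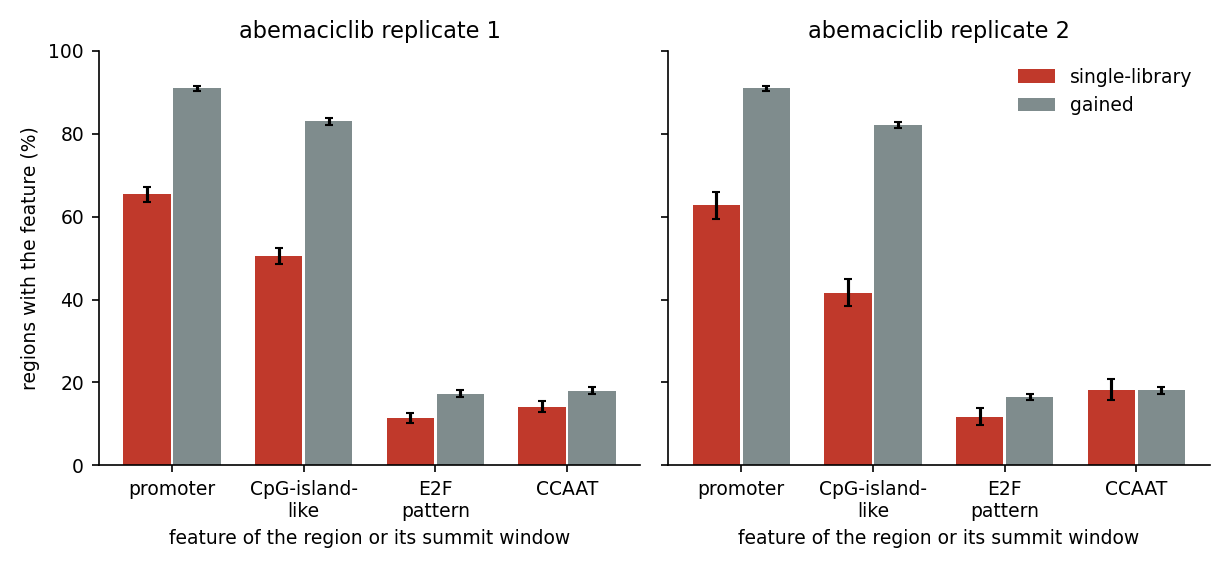
Share of regions (%, vertical axis) at promoters, with CpG-island-like summit windows, with an E2F pattern and with CCAAT, for single-library (red) and gained (grey) regions in each abemaciclib library. Bars are shares with Wilson 95% intervals. Single-library bars are lower for promoters, islands and E2F in both libraries, while for CCAAT the intervals overlap in replicate 2.

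Positions were also read within ranges of strength, although strength was not matched peak by peak inside a range and the classes still differed in width. Among peaks of replicate 1 with −log10 p from 3.74 to 5.23, 457 of 824 single-library regions lay at promoters (55.5%), against 173 of 209 gained regions (82.8%). The shares were 61.7% and 81.2% from 5.23 to 6.32, 70.5% and 80.0% from 6.32 to 8.65, and 76.6% and 89.2% from 8.65 to 25.6. In replicate 2 the weakest range gave 53.4% of 221 single-library and 82.8% of 238 gained regions. The strongest range gave 68.2% and 88.6%. CpG-island-like windows followed the same course, from 38.1% to 67.5% of single-library regions of replicate 1, while gained regions stayed between 69.9% and 81.3%. E2F patterns stood in 10.1% of single-library and 12.4% of gained windows in the weakest range of replicate 1. In its highest range they stood in 14.2% and 16.6%. In replicate 2 the order turned from 5.88 to 7.24, with 16.9% and 13.2%, and was kept in the other ranges. In the highest range of replicate 1 the median width was 423 bp for single-library and 682 bp for gained peaks. Strength chose the members in part, so these shares are given without a test.

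**Figure D4:**
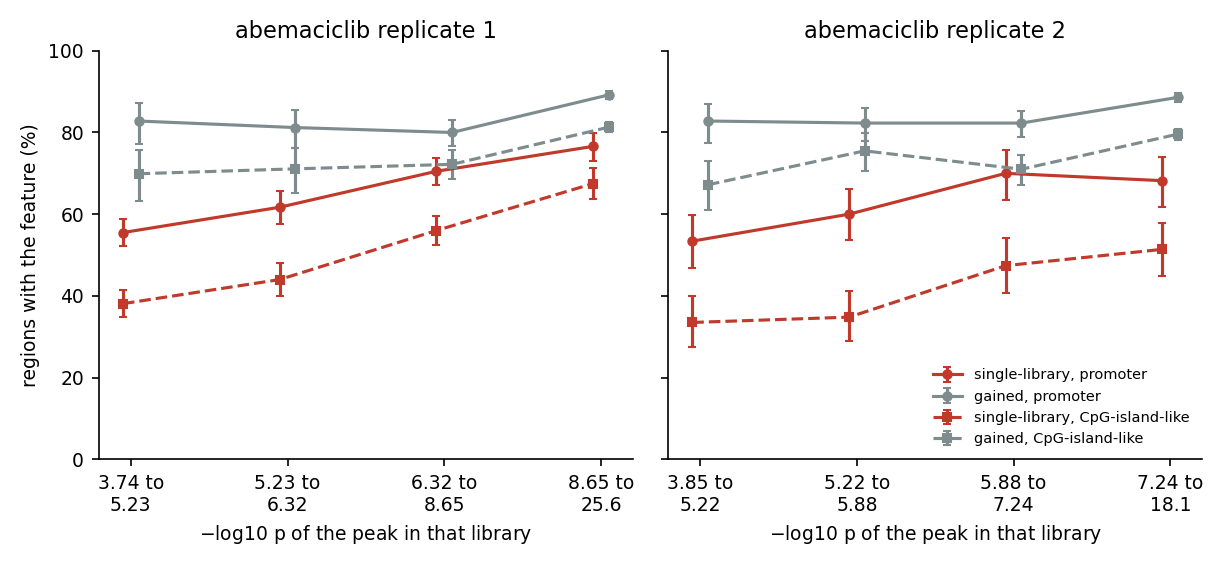
Share of regions (%, vertical axis) at promoters (solid) and with CpG-island-like summit windows (dashed) within 4 ranges of −log10 p (horizontal axis), for single-library (red) and gained (grey) regions. Bars are Wilson 95% intervals. In the weakest range of replicate 1 the promoter share is 55.5% for single-library and 82.8% for gained regions.

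Of all 3596 single-library regions, 2028 (56.4%) lay at the promoter of a coding gene, 245 (6.81%) at promoters of long non-coding RNAs alone and 37 (1.03%) at those of pseudogenes alone. Gained regions lay at coding promoters in 85.1% of cases. Promoters of at least 2 coding genes were covered by 250 single-library regions (6.95%), against 14.6% of gained regions, which were wider. The remaining 1268 regions (35.3%) touched no promoter. Their summits lay in introns of coding genes in 570 cases (45.0%), between genes in 450 (35.5%) and in coding exons in 57, while 123 lay in non-coding genes' introns. A coding TSS was over 10 kb away for 893 of all 3596 single-library regions (24.8%) and over 100 kb away for 193 (5.37%). Among all merged regions these shares were 12.5% and 2.46%, and among gained regions, read at their replicate 1 summits, 8.48% and 1.41%.

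Outside promoters, the shares of windows with other patterns are described without a test. The GATA patterns AGATAA or TGATAA stood in 127 of 1268 non-promoter windows (10.0%, 9.90% in replicate 1 and 10.3% in replicate 2), against 4.75% and 5.01% of 779 gained non-promoter windows. The cell cycle homology pattern TTTGAA stood in 9.54%, against 7.06% and 7.32%. AP-1 patterns, TGACTCA or TGAGTCA, stood in 4.1%, against 2.57% and 2.82%, and the forkhead pattern TGTTTAC in 3.71%, against 2.18% and 2.57%. GATA3 and FOXA1, which bind GATA and forkhead patterns, are luminal transcription factors. The GC-rich SP/KLF pattern GGGCGG stood in 23.2%, against 43.6% and 46.2%. Island-like sequence was found in 19.0% of these windows, against 49.6% and 49.2%. The part of base composition in these shares was not tested. Among all 14810 merged regions the shares were 3.96% for GATA, 4.56% for TTTGAA, 1.74% for AP-1, 1.30% for forkhead and 54.5% for GGGCGG. In RefSeq promoter windows they were 11.6%, 10.3%, 3.52%, 2.31% and 40.2%.

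The oestrogen response element, taken as GGTCA and TGACC separated by 3 bases, stood in 2 single-library windows, 1 in each library. With each of the 14810 merged regions read at its strongest summit, no other window held it, while the replicate 2 summit of 1 gained region did. Among 34961 RefSeq promoter windows 12 held it (0.0343%). Only this exact pattern was searched, and the counts are too small to compare classes. The CTCF core stood in 41 single-library windows (1.14%), against 0.668% of all regions. ETS (CCGGAAG) stood in 4.56% against 7.08%, NRF1 in 0.834% against 1.78%, CRE in 0.556% against 0.722% and YY1 (AAGATGG) in 2.61% against 3.27%.

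The strongest single-library region of replicate 1 lay in a coding exon of SHOX2, a homeodomain transcription factor, 7.23 kb from the TSS. Its summit held 24 fragments at 12.5-fold enrichment and −log10 p of 25.6, and the nearest peak of replicate 2 was 7.86 kb away. The next non-promoter regions of that library lay near CFAP100, a cilia and flagella protein, with −log10 p of 21.5, CD69, a receptor of activated lymphocytes, with 19.3, DUSP8, a MAP kinase phosphatase, with 18.8, and POTEH with 18.8. The first 3 of these had 19 to 20 fragments at the summit. The POTEH region lay 442 kb from that gene's TSS.

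At promoters of replicate 1, LINC01511, a long non-coding RNA, led with 29 fragments, the largest pileup of any single-library region, and −log10 p of 24.3. WRAP73, a WD-repeat protein of the centrosome, followed with 20 fragments and 23.8. DNAJC11, a mitochondrial chaperone, POLR3B, a core subunit of RNA polymerase III, and CUX1, a homeodomain transcription factor, each had 19 fragments at 12.1-fold enrichment and −log10 p of 22.3. For DNAJC11 a peak of replicate 2 stood 0.417 kb away and for CUX1 0.974 kb away. For POLR3B the nearest was 54.1 kb away.

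In replicate 2 the leading non-promoter region, near PPIAL4C of the cyclophilin family, had 15 fragments, 10.5-fold enrichment and −log10 p of 18.1. Regions near FAM156A, MEOX1, HROB and PLXNB2 followed, with −log10 p from 15.1 to 13.6. HROB, a factor of homologous recombination, was 3.41 kb from its summit, and PLXNB2 is a semaphorin receptor. At promoters, ZNF839 led with 16 fragments and 16.7, and the nearest peak of replicate 1 was 0.131 kb away. PTP4A1, a tyrosine phosphatase, had 13 fragments and 15.1. BAIAP2, an actin adaptor, UBE2D3, a ubiquitin-conjugating enzyme, and UBXN1 had 16, 14 and 12 fragments. The POTE and PPIAL4 families have near-identical copies, between which reads cannot always be placed, so their positions are uncertain.

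The weakest members were at the limit of calling. In replicate 1 it was an intergenic peak of 186 bp, 18.8 kb from the TSS of GABRP, with 5 fragments at 3.34-fold enrichment and −log10 p of 3.74. In replicate 2 it was a peak of 245 bp in an exon of a non-coding gene, 7.99 kb from the TSS of RBP5, with 7 fragments at 3.25-fold enrichment and −log10 p of 3.85.

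By gene, 2122 of 19962 coding genes (10.6%) had a single-library region at a promoter. For 1332 of them (6.67% of coding genes) no other class of region lay there. A gained region was also found at 623 and a region with a DMSO peak at 167. Single-library regions of both abemaciclib libraries lay at the promoters of 83 genes, without sharing a base.

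TPD52L1, a member of the tumour protein D52 family in the oestrogen response list, was such a gene. The peak of replicate 1 spanned chr6:125154402-125154855, with 11 fragments and −log10 p of 9.10. The peak of replicate 2 spanned chr6:125153845-125154287, with 7 fragments and 6.38. A gap of 0.114 kb separated them. The rule therefore counted a promoter with a peak in both abemaciclib libraries as 2 single-library regions.

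The cell cycle list, genes of DNA replication, mitosis and their control, held no gene with single-library regions alone. That was 0 of 80 genes (up to 4.58% by the 95% interval), against 6.67% of all coding genes. A gained region was the strongest class at 30 of these genes and a region with a DMSO peak at 49, which left 1 without any. CDT1, FOXM1 and KIF11 each had a single-library region of replicate 1 beside a stronger one, with −log10 p of 6.28, 4.73 and 7.46. CCNE1 and E2F1, cyclin E1 and the E2F factor that Rb restrains, and CCND1, cyclin D1, had regions with DMSO peaks and no single-library one.

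The oestrogen response list was made by hand and read at promoters alone, whereas the paper used hallmark gene sets and mainly non-promoter peaks. Of its 78 genes, 5 had single-library regions alone (6.41%, 2.77% to 14.1%), close to the share of all coding genes. They were MLPH, a Rab27 effector, with −log10 p of 11.1, SEMA3B, a secreted semaphorin, with 9.10, TPD52L1, FHL2, a LIM-domain cofactor, with 8.65, and MREG with 7.46. Of 46 luminal genes, 2 did (4.35%, 1.20% to 14.5%), namely MLPH again and SPDEF, a luminal ETS factor, with −log10 p of 4.09 on 6 fragments. TFF1, KRT18 and KRT19, markers of luminal cells, had no Rb region of any class at their promoters. Of 30 basal and mesenchymal genes, 3 had single-library regions alone, and of 39 interferon and antigen presentation genes 2 did. The first were EGFR, ITGA6 and VIM, with −log10 p of 11.1, 4.09 and 5.62, and the second HLA-F and IFI6, with 4.57 and 6.24, all named after their values were seen.

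Among gene families, cytosolic ribosomal protein genes had the highest share with single-library regions alone, 14 of 84 (16.7%, 10.2% to 26.1%), against 6.67% of all coding genes. For this family 12 were seen in replicate 1 and 2 in replicate 2. Replication-dependent histone genes followed with 9 of 69 (13%, 7.02% to 23%), mitochondrial ribosomal proteins with 10 of 78 (12.8%, 7.12% to 22%), C2H2 zinc finger genes with 69 of 608 (11.3%, 9.07% to 14.1%) and oxidative phosphorylation subunits with 10 of 95 (10.5%, 5.82% to 18.3%). Of the 9 histone genes, H2AC14 and H2BC14 shared 1 region, as did H2AC4 and H3C2, and H2AC8 and H2BC8, so they are not independent and their interval is too narrow. Some zinc finger genes shared a region too, among them ZNF10 with ZNF891 and ZNF2 with ZNF514, so the same limit holds for their interval. Intervals of the cytosolic ribosomal, mitochondrial ribosomal, histone and zinc finger families lay above the share of all coding genes, the last 2 being too narrow. The families were compared with no test, and the intervals make no allowance for the number of families read.

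Read against the genes that had any region, the order changed. Single-library regions alone made up 11.3% of the 11833 coding genes with a region. The share was 16.3% (13.1% to 20.1%) of 424 zinc finger genes, 19.4% (12% to 30%) of 72 cytosolic ribosomal protein genes, 25% (13.8% to 41.1%) of 36 histone genes, 25.3% (17% to 35.9%) of 79 ion channel and neurotransmitter receptor genes and 20.2% (13.2% to 29.7%) of 89 homeobox and developmental factors. For mitochondrial ribosomal proteins it was 14.1% (7.83% to 24.0%) of 71 genes and for oxidative phosphorylation subunits 13.2% (7.31% to 22.6%) of 76. Both of these intervals held the 11.3% of all coding genes with a region. No region was found at 8.97% of mitochondrial ribosomal protein genes, against 40.7% of all coding genes. Ion channel and homeobox genes had no region at 68.1% and 61.5% of their genes. The shares were highest where few genes had a region, 4 of 10 protocadherins (40%, 16.8% to 68.7%) and 3 of 9 basal and mesenchymal genes (33.3%, 12.1% to 64.6%), and 4 of 17 cytokine and chemokine genes gave 23.5% (9.56% to 47.3%). Of all their genes, these were 4 of 65, 3 of 30 and 4 of 121. None of 416 olfactory receptor genes had a region of any class, and of 149 keratin and keratin-associated genes 1 had, a gained one.

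Solute carriers (28 of 383, 7.31%) stood near the share of all coding genes, as did splicing factors (5 of 72, 6.94%) and proteasome subunits (2 of 39, 5.13%). Aminoacyl-tRNA synthetases (3 of 34, 8.82%) and RNA polymerase subunits (3 of 33, 9.09%) also had intervals that held it.

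**Figure D5:**
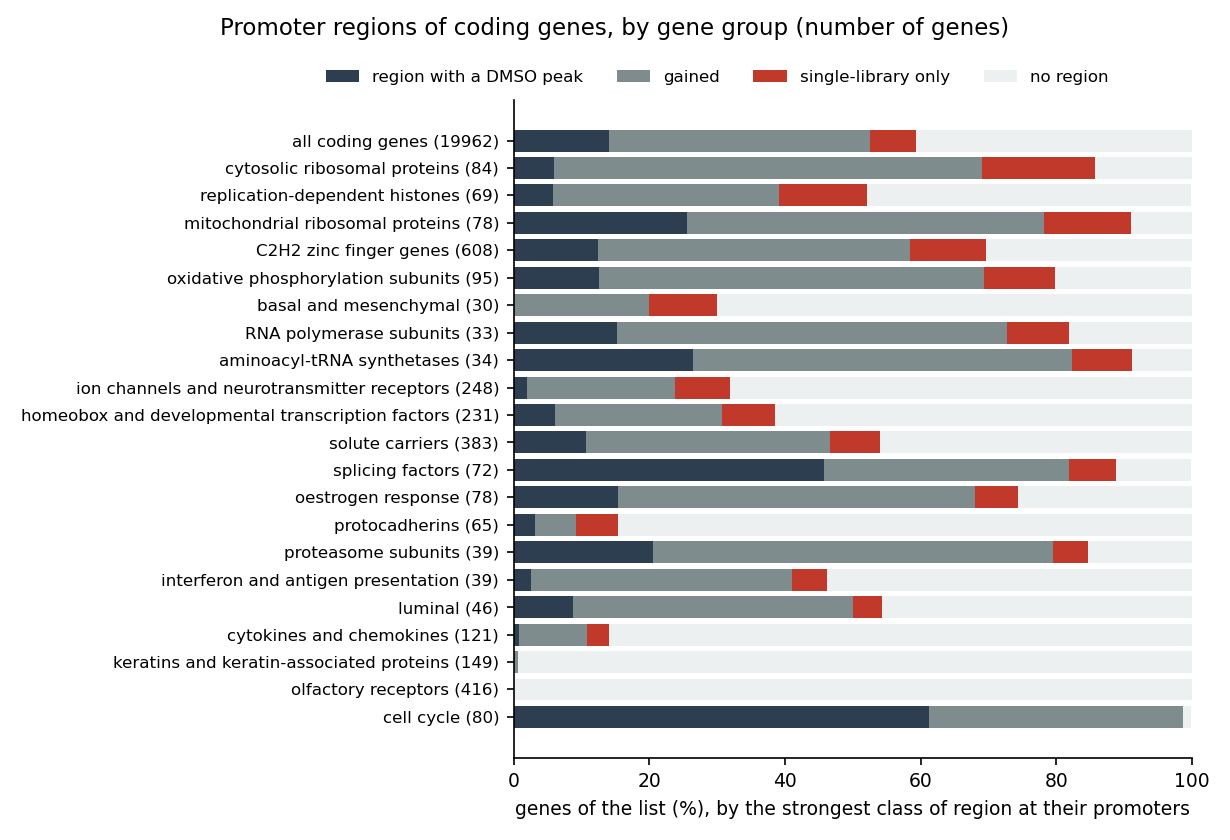
Share of genes (%, horizontal axis) in each gene group, with its number of genes, by the strongest class of region at their promoters: with a DMSO peak, gained, single-library only, or none. Single-library regions alone are found at 16.7% of cytosolic ribosomal protein genes, 6.67% of all coding genes and none of the 80 cell cycle genes.

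Single-library regions were spread over the chromosomes. They made up from 20.7% of merged regions on chromosome 4 to 28.5% on chromosome 20. In density they ranged from 0.560 per Mb on chromosome 13 to 4.83 per Mb on chromosome 19, which is rich in genes. Regions of replicate 1 outnumbered those of replicate 2 on every chromosome, from 2.06 to 1 on chromosome 18 to 7.61 to 1 on chromosome 10, where 137 faced 18. The densest 5-Mb window outside promoters was chr19:1-5000000, with 16 regions of replicate 1, 5 of replicate 2 and 23 gained ones.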

How the data were processed

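Rb CUT&RUN and IgG2a peak lists of ZR-75-1 cells were used as deposited. The authors trimmed reads with BBDuk, aligned them to GRCh38 (hg38) with Bowtie2 2.3.4.1, removed mitochondrial and blacklisted reads, retained duplicates, and called peaks in each library with MACS2 2.2.7.1 at a q-value of 0.05 against IgG. The deposited lists give a fold enrichment, for which the caller adds 1 to the pileup of fragments and to the local background and divides the first by the second. They also give the −log10 of a p-value and of a q-value, and a score and a summit offset, as the authors' caller wrote them. Library depth is unknown, and how reads with several alignments were treated is not given in the sources used here. Per the labels, samples were grouped by title.

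Peaks on chromosomes 1 to 22 and X were merged at an overlap of 1 bp with Python 3.11.15 and numpy 2.4.6. Annotation was GENCODE 44. Fragments at a summit were solved as a whole number and a background matching fold and −log10 p within 0.002. This was tested on simulated data. Features were compared by Fisher's exact test, two-sided (scipy 1.17.1), with Benjamini-Hochberg adjustment over 8 tests. Shares have Wilson 95% intervals, and intervals of differences combine them, all covering counting error only. Motif background came from the middle 200 bp of RefSeq promoters (GRCh38).

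Members and gene lists were chosen with earlier results of these data known. The cell cycle, oestrogen response, luminal, basal and mesenchymal, and interferon and antigen presentation lists were made by hand. Named regions were, per library, the 5 promoter and 5 non-promoter regions of highest −log10 p, the weakest region, up to 8 genes each of the cell cycle, oestrogen response and luminal lists with single-library regions alone, and CCND1, CCNE1, E2F1, TFF1, KRT18 and KRT19. Other gene names were added after values were seen. Alternatives varied the q-value, list length, merging, promoter and window definitions left out DMSO libraries or IgG2a regions, and took each abemaciclib library alone. The summit sequence of 1 region is not reported here.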

Additional observations from a re-analysis of the deposited data

How the results depend on the processing

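Peak lists hold calls and not counts, so a site just under the threshold is treated as unbound, and pileups of 5 to 8 fragments, on which most single-library calls rest, limit their precision. The tests against gained regions were not run without an abemaciclib library, since no gained class is then left. No paired analysis was possible because merged peak lists and tests on regions involve no fit over samples.

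Applied anew to peaks with a q-value of 1e-05 or less, the rule gave 2237 single-library regions, against 3596. These are not a subset of the 3596, of which 1029 had such a q-value (28.6%). A region with peaks in both abemaciclib libraries became single-library where its weaker peak was dropped. Shares and differences at a q-value limit describe classes formed anew in this way. Leaving out each DMSO library gave 3596 to 3601 regions. That was nearly fixed beforehand, since only 5 regions had a peak in 1 abemaciclib library and in a DMSO library. The rule cannot be applied without an abemaciclib library, so the members of each were taken alone, with both lists still setting membership, and replicate 2 alone held 884. The promoter share of 64.7% moved to 67.0% with q-values up to 0.01, 79.0% with 1e-05, 70.4% with equal numbers of abemaciclib peaks, 61.6% with gaps of up to 500 bp merged, 70.7% with 400-bp summit windows as regions, 56.4% for coding promoters alone and 63.0% for the summit alone, an alternative chosen after seeing the data. It was 62.8% for members of replicate 2 alone and 64.7% without either DMSO library. The CpG-island-like share of 48.3% moved to 50.9% and 69.6% at the same q-values, 55.1% with equal numbers, 53.7% with summit windows and 32.8% with the stricter criterion, and was 41.6% for members of replicate 2 and 50.5% for those of replicate 1 taken alone. The E2F share of 11.4% moved to 13.4% at 1e-05 and to 20.9% in 400-bp windows. Coding genes with a single-library promoter region numbered 2122 in all, 535 from members of replicate 2 alone and 2122 to 2127 with a DMSO library left out.

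The differences from gained regions in promoter, island-like and E2F shares kept their direction and stayed past the threshold of 0.05 in both libraries under the alternatives run, but their sizes moved. Both libraries were compared with the same gained regions, so their results are not separate. Ranges of strength were not among these alternatives, and there the E2F order turned in replicate 2 for −log10 p from 5.88 to 7.24. With q-values up to 1e-05 the promoter differences were −14.1 and −15.8 points, against −25.6 and −28.2, with −16.2 in replicate 2 for 400-bp summit windows, and the island-like ones −15.4 and −18.5, against −32.5 and −40.5. In 400-bp motif windows the E2F differences were −11.9 and −12.9 points, against −5.95 and −4.80. The CCAAT difference in replicate 2, of 0.123 points, turned to −0.813 and −5.03 points with q-values up to 0.01 and 1e-05, −0.847 with gaps of 500 bp merged, −2.12 with summit windows and −0.309 without DMSO replicate 2 (from −0.309 to 0.0986 with a DMSO library left out), past the threshold at 1e-05 alone among these (adjusted p = 0.00309, Fisher's exact test). In all, 107 of 132 alternatives over 13 results were counted as unchanged. For differences between classes this meant the same direction and the same side of the threshold, whatever the size. For shares it meant a value within the interval, and for counts a wide margin, which took in 2750 and 4493 regions against 3596. The 107 include alternatives that could hardly move a result, such as leaving out a DMSO library or peaks overlapping IgG2a peaks.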
